A study of Xenopus tropicalis with 13 samples.

Results

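The genes described here encode the extracellular matrix of the frog embryo, the integrins that bind it and the metalloproteases that cut it. They were taken by symbol: collagens, laminins, integrin alpha and beta chains, ADAM, ADAMTS and MMP proteases, TIMP inhibitors, fibulins, fibrillins, fibronectin, hyaluronan synthases and link proteins, chondroadherins, thrombospondins, tenascin C and the LOX-like enzymes, with adam19 left out. A symbol counted only where one of the authors' deposited tables listed it. This gave 36 genes of the 3270 listed in any of the 4 tables used. Of these, 28 were listed for a change in level, 9 for a gene segment (bin) whose use changed, and 1, adamts4, for both. The tables list only items past the authors' threshold, an adjusted p under 0.1, so a matrix gene that is absent from them was not shown to be unchanged. Level changes listed at stage 15 were also all of 2-fold or more, whereas those listed at stage 10 went down to 0.39 on the log2 scale.

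The study, in the western clawed frog Xenopus tropicalis, sequenced polyadenylated RNA of 13 whole embryos, one per library. The groups were 3 embryos injected with a morpholino (MO), an antisense oligonucleotide, against Taf15 and 3 uninjected embryos at stage 10, the start of gastrulation, and 3 MO-injected and 4 uninjected embryos at stage 15, when the neural plate folds. A morpholino blocks the translation or splicing of its target RNA, and Taf15 is an RNA-binding protein of the FET family. The series design names several Taf15 morpholinos without tying one to an embryo, and the uninjected embryos received no control morpholino. One uninjected embryo has stage 15 as its stage label and in its title but stage 10 in its description, and was used at stage 15. Sample titles at stage 15 follow different naming styles, so a batch is possible, but the tables tie no value to a named embryo and its part was not tested. No table lists taf15 itself, so the files hold no check of the knockdown. Library totals were not in the tables used here, so the depth of each embryo is unknown. The level tables hold no values per embryo, so the errors given for levels are the authors' standard errors (SE) of the log2 fold change. Which embryos entered their estimate was not stated, so they are not read as a spread within a stage.

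The extracellular matrix is a network of collagen fibres, laminin sheets, glycoproteins and hyaluronan that cells secrete and then hold on to through integrins, receptors made of an alpha and a beta chain. In a frog gastrula, cells of the mesoderm crawl over fibronectin fibrils through the integrin made of the chains alpha5 and beta1. Later, matrix surrounds the notochord and somites and separates the tissue layers. MMP, ADAM and ADAMTS proteases remodel it, and TIMPs inhibit them.

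At stage 10, 4 of these genes were listed in level, 3 higher and 1 lower in MO-injected embryos. Of all 292 genes in that table, 43.5% were higher, and 4 members are too few to read against that share. The listed genes were at most 2.19% of those tested, judging by the lowest number of tests the deposited p-values allow. The integrin gene itga5, whose product is the alpha chain of the fibronectin receptor, had the smallest adjusted p of the 4 and the eighth smallest p of the whole table. It rose 2.36-fold, with a log2 fold change of 1.24 (adjusted p = 5.12e-11, SE 0.163, mean normalised count 2469) in the authors' deposited table. No change of itga5 was listed at stage 15, where changes under 2-fold were not listed for any gene. The hyaluronan synthase related gene has-rs fell by 1.71 on the log2 scale (adjusted p = 0.00541, SE 0.410, mean normalised count 1323) in the authors' deposited table. The gene chad, for the leucine-rich matrix protein chondroadherin, rose 7.90-fold, with a log2 fold change of 2.98 (adjusted p = 0.0193, SE 0.806, mean normalised count 120.5) in the authors' deposited table. The inhibitor gene timp3, whose product binds the matrix, rose by less than 2-fold, with a log2 fold change of 0.84 (adjusted p = 0.0464, SE 0.247, mean normalised count 174.6) in the authors' deposited table. No collagen, laminin or MMP gene was listed at this stage, and 0 of the stage's 228 listed bins belonged to a member. In 97.4% of those 228 bins the raw counts of both groups did not overlap.

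At stage 15, 27 of the genes were listed in level, 10 higher and 17 lower in MO-injected embryos. The share higher was 37.0%, against 45.1% of all 2094 genes in that table, so the set as a whole stood close to the background. The balance was also counted within limits on size of change and on mean normalised count. Among members changed at least 4-fold, 6 were higher and 3 lower (66.7% higher). Those 6 included loxl4, itga2b.1 and adam21, each with a mean normalised count under 10. Among members with a mean normalised count of 10 or more, 7 were higher and 17 lower (29.2% higher). Shares of all listed genes within these limits were not computed, so the 45.1% is no background for them. The counts within these limits are therefore not read as a result. The listed genes were at most 13.2% of those tested, and none was changed by less than 2-fold. The median log2 fold change was -1.10 over the members and -1.07 over all listed genes. The median size of change was likewise similar, at 1.55 for members and 1.65 for all listed genes on the log2 scale. Members had a median mean normalised count of 52.2, against 78.1 over all listed genes. RefSeq's gene table for the assembly UCB_Xtro_10.0 has 169 protein-coding genes whose symbols meet the rule, and 34 of the 36 members matched one of them by symbol. Of these 169 genes, 14.8% were in the stage 15 level table, against 8.48% of the 15628 named protein-coding genes of that assembly, matched the same way. In the other tables the shares were 1.78% against 1.5% for level at stage 10, 5.33% against 5.23% for bins at stage 15, and 0 against 0.973% for bins at stage 10. How many of either kind were expressed in these embryos is unknown.

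**Figure D1:**
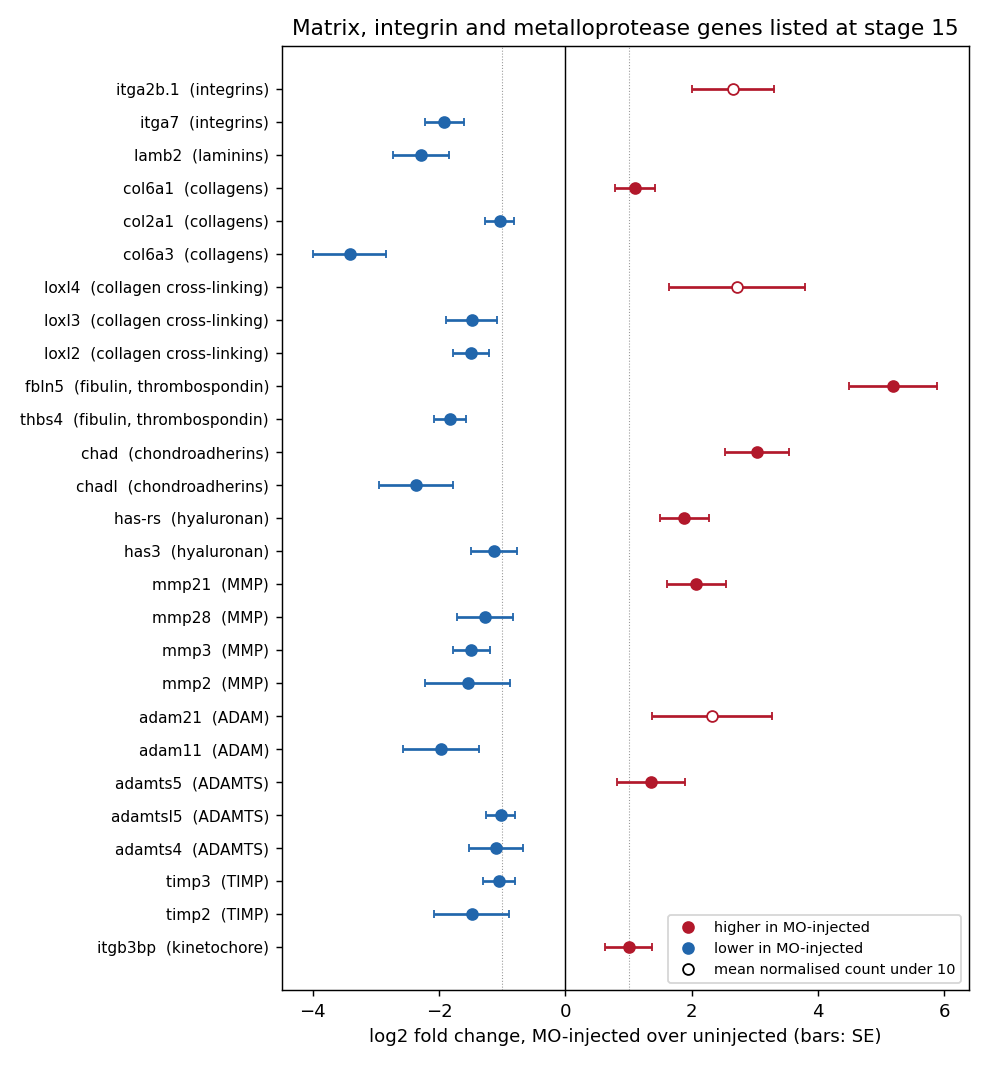
Log2 fold change of each listed gene at stage 15 (x axis, MO-injected over uninjected, bars 1 SE, dotted lines at 2-fold), grouped by kind of protein down the y axis. The 10 higher genes run from 1.00 (itgb3bp) to 5.19 (fbln5) and the 17 lower genes from -3.42 (col6a3) to -1.03 (adamtsl5); open circles mark the 3 genes with a mean normalised count under 10.

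Among the receptors, itga7, for the laminin-binding alpha chain that is abundant in skeletal muscle, fell by 1.92 on the log2 scale (adjusted p = 2.94e-08, SE 0.309) in the authors' deposited table. The gene itga2b.1, for the alpha chain of the platelet fibrinogen receptor, was higher by 2.66 (adjusted p = 0.000567, SE 0.648), at a mean normalised count of only 8.73, in the authors' deposited table. RefSeq's table also holds a copy named itga2b.2, and how reads were divided between such copies is not described. Another symbol caught by the rule, itgb3bp, belongs to a protein that binds an integrin tail and is also a component of the kinetochore, not to an integrin. It was higher by 1.00 (adjusted p = 0.0361, SE 0.372), at the edge of the 2-fold limit, in the authors' deposited table.

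Of 4 listed collagen and laminin genes, 3 were lower at stage 15. Among all genes listed at that stage 45.1% were higher, and 4 genes are too few to read against that share. The largest decrease of any member was that of col6a3, for the alpha3 chain of collagen VI, a beaded filament around muscle and other cells. It was 10.7-fold lower in MO-injected embryos, with a log2 fold change of -3.42 (adjusted p = 1.65e-07, SE 0.580, mean normalised count 33.0) in the authors' deposited table. Its partner chain gene col6a1 was higher, by 1.10 (adjusted p = 0.00530, SE 0.322, mean normalised count 58.6) in the authors' deposited table. These chains assemble into one collagen. Their difference was not tested, since both values come from the same embryos and the tables give no joint error. Among members listed in level, the gene with the most reads was col2a1, the fibrillar collagen of the notochord sheath and cartilage, at a mean normalised count of 4933, not adjusted for length. It fell 2.06-fold, by 1.04 on the log2 scale (adjusted p = 9.07e-05, SE 0.228) in the authors' deposited table. The laminin gene lamb2, for the beta2 chain of basement membranes, fell by 2.29 (adjusted p = 6.54e-06, SE 0.442, mean normalised count 24.4) in the authors' deposited table.

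Enzymes that cross-link collagen and elastin through lysine were listed as 2 lower genes and 1 higher gene. These are too few to read against the 45.1% higher among all listed genes. In the authors' deposited table loxl2 was at -1.50 (adjusted p = 4.27e-06, SE 0.285) and loxl3 at -1.48 (adjusted p = 0.00270, SE 0.407). Their relative loxl4 was at 2.71 (adjusted p = 0.0527, SE 1.08) in the authors' deposited table, at a mean normalised count of 5.03. Of the 4 LOX-like genes in RefSeq's table, loxl1 was the one not listed.

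Glycoproteins of the matrix went both ways. The largest rise of any member was that of fbln5, for fibulin 5, which organises elastic fibres. It was 36.5-fold higher, with a log2 fold change of 5.19 (adjusted p = 1.38e-11, SE 0.699) in the authors' deposited table, where it stood 20th from the top by size of rise. Its mean normalised count over all embryos was 25.7. The gene thbs4, for thrombospondin 4 of tendon and muscle attachments, fell by 1.83 (adjusted p = 2.00e-10, SE 0.260, mean normalised count 763.8) in the authors' deposited table. The chondroadherin genes were again split. In the authors' deposited table chad was at 3.03 (adjusted p = 1.11e-07, SE 0.507) and its relative chadl at -2.36 (adjusted p = 0.000731, SE 0.586, mean normalised count 14.1).

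Hyaluronan synthases spin out the long sugar polymer that swells the space between cells. The related gene has-rs was higher at stage 15, by 1.88 (adjusted p = 2.06e-05, SE 0.383), while has3 was lower, at -1.13 (adjusted p = 0.0138, SE 0.367, mean normalised count 34.0), both in the authors' deposited table. Neither has1 nor has2 was listed.

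Of 9 listed metalloprotease and ADAMTS family genes, 3 were higher and 6 were lower. With 45.1% higher among all listed genes, 9 genes are too few to read this as a direction of the families. Among MMPs, mmp3 (stromelysin), which had the most reads of these genes at a mean normalised count of 1048, fell by 1.49 (adjusted p = 9.75e-06, SE 0.293) in the authors' deposited table. The gelatinase gene mmp2 was at -1.55 (adjusted p = 0.0873, SE 0.679) and mmp28 at -1.28 (adjusted p = 0.0224, SE 0.442) in the authors' deposited table. In contrast mmp21, a protease gene whose loss disturbs left-right asymmetry in vertebrates, was 4.21-fold higher, at 2.07 (adjusted p = 0.000132, SE 0.462, mean normalised count 206.5) in the authors' deposited table. Of the ADAM genes, adam11, which encodes a neural surface protein without protease activity, fell by 1.97 (adjusted p = 0.00835, SE 0.602, mean normalised count 19.4) in the authors' deposited table. The gene adam21 was at 2.32 (adjusted p = 0.0631, SE 0.951, mean normalised count 8.71) in the authors' deposited table. The aggrecan-cutting proteases of the ADAMTS family were opposed in the authors' deposited table, with adamts5 at 1.35 (adjusted p = 0.0569, SE 0.544) and adamts4 at -1.10 (adjusted p = 0.0447, SE 0.423). The gene adamtsl5, whose family resembles ADAMTS proteins but lacks the protease domain, fell by 1.03 (adjusted p = 0.000224, SE 0.236, mean normalised count 262.0) in the authors' deposited table.

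Both listed inhibitor genes were lower at stage 15. Since 45.1% of all listed genes were higher, 2 genes are too few to read as a direction of the family. In the authors' deposited table timp3 was at -1.06 (adjusted p = 0.000470, SE 0.254) and timp2, whose product both inhibits and helps to activate MMP2, at -1.48 (adjusted p = 0.0574, SE 0.597, mean normalised count 18.2). With timp2, mmp2, adamts5, loxl4 and adam21, 5 of the 27 genes had an adjusted p between 0.05 and 0.1.

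The question of whether a response changed between gastrula and neurula could be put for the 3 genes listed at both stages, since the stages share no embryo. Each gene listed at both stages had the same mean normalised count at both, as a joint analysis of all embryos gives. A joint fit would link the errors of the stages, which the test below took as independent. Over the 53 genes listed at both stages, 37.7% passed a two-sided Wald test of the difference built from the authors' standard errors (Benjamini-Hochberg adjusted p under 0.05). All 7 of the 53 genes whose listed changes had opposite signs passed, so for such genes the listing itself all but fixes the call, and the differences of has-rs and timp3, 2 of those 7, are given as descriptions. The change of has-rs at stage 15 exceeded that at stage 10 by 3.59 on the log2 scale (SE 0.561), with a fall at stage 10 and a rise at stage 15. The change of timp3 differed by -1.89 (SE 0.354), with a rise at stage 10 and a fall at stage 15. For chad the difference was 0.05 (adjusted p = 0.999, SE 0.952). Its 95% interval ran from -1.82 to 1.91, so the test does not show that the responses were alike. The mean normalised count is one value over embryos of both stages, so the levels at each stage cannot be given.

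**Figure D2:**
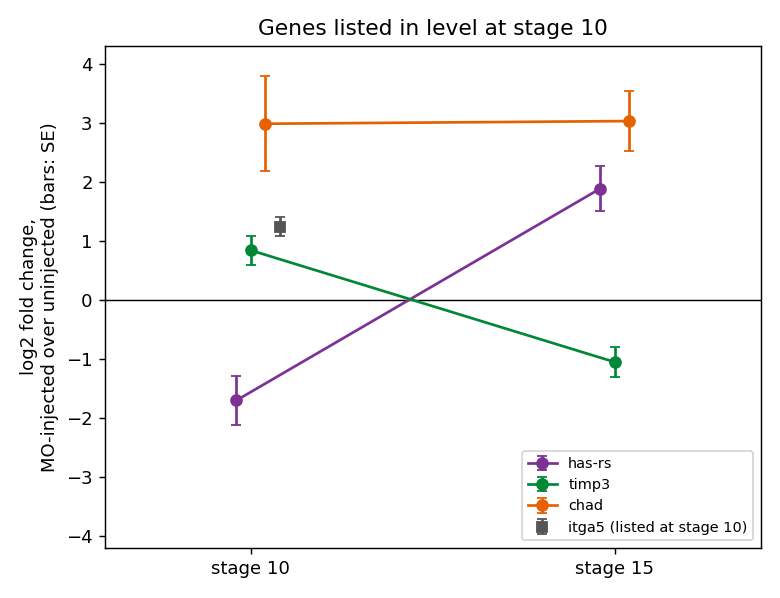
Log2 fold change (y axis, MO-injected over uninjected, bars 1 SE) at stage 10 and stage 15 (x axis) for the 4 genes listed at stage 10. The lines of has-rs (-1.71 and 1.88) and timp3 (0.84 and -1.06) cross 0 in opposite directions, chad stays near 3 (2.98 and 3.03), and itga5 has a single point at 1.24.

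At stage 15, 9 of the genes had 1 listed bin each, which is 5.33% of the 169 RefSeq genes of the rule, close to the 5.23% of all named genes with a listed bin. A bin is a piece of a gene, and usage compares its level with that of the rest of the gene. The log2 usage change is the log2 ratio of the authors' fitted usage scores. The scale of these scores was not stated, so the ratio is not read as a fold change in reads. Every listed bin, in these genes as in all 1429 of that table, was used more in MO-injected embryos. The smallest log2 usage change of the 9 was 1.10. Whether bins used less, or changed less, were left out of the deposited list is unknown, so the shared direction is not read as a result. The median log2 usage change was 1.34 over the 9 bins and 1.75 over all listed bins in the authors' deposited table. In raw counts, 4 of the 9 bins had every MO-injected embryo above every uninjected embryo, against 75.5% of all listed bins. Without the second MO-injected count column it was 7 of 9, against 83.8% of all listed bins. The bins were listed because of these counts, so the values below are a description. Bin positions are those of the authors' table, whose genome build was not stated in the sources used here.

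The integrin beta1 gene, itgb1, encodes the beta chain shared by the fibronectin, laminin and collagen receptors. Its bin E003, 358 bases long on the minus strand (scaffold_6:122538400-122538757), had 93, 1403 and 1465 reads in the MO-injected embryos, against 81, 48, 65 and 67 reads in the uninjected embryos. The groups do not overlap, but 1 MO-injected embryo lay close to the uninjected ones while the others were far above. The mean of the second and the third, 1434 reads, was 22.0 times the uninjected mean of 65.3 reads, whereas the first embryo was 1.43 times that mean. By mean count it ranked 3 among the 1429 bins. By the authors' deposited table its fitted usage score was 32.1 in MO-injected and 12.7 in uninjected embryos. The ratio of these scores was 2.53 (log2 usage change 1.34, adjusted p = 0.0249). Over all listed bins the first MO-injected column was at a median 0.70 times the mean of the second and the third, and for itgb1 it was 0.0649 times. Of the 66 bins with a mean count of 100 or more, 1, the itgb1 bin itself, had a ratio this low.

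Alpha chain genes that can pair with beta1 had thinner bins. For itgav, the alpha chain of vitronectin receptors, bin E005 (scaffold_9:39506581-39506862, plus strand) had 37, 4 and 26 reads in MO-injected embryos, against 12, 6, 1 and 5 in uninjected embryos. The groups overlap, because the second MO-injected embryo lay below 3 of the uninjected ones. The listed usage change was 1.20 on the log2 scale (adjusted p = 0.0395) in the authors' deposited table. For itga4, the alpha4 chain of fibronectin and VCAM1 receptors, bin E006 (scaffold_9:23143798-23143939, plus strand) had 4, 0 and 3 reads in MO-injected embryos and none in any of the 4 uninjected embryos. With 7 reads in all, its log2 usage change of 5.19 (adjusted p = 0.0370) in the authors' deposited table rests on little. It was the 1 member bin without a read in uninjected embryos.

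Among matrix proteins, the laminin alpha1 gene lama1, a main chain of the earliest basement membranes, had bin E066 (scaffold_6:44262815-44263019, minus strand) at 2, 7 and 7 reads in MO-injected embryos, against 0, 1, 2 and 1 in uninjected embryos. The lowest MO-injected value met the highest uninjected one. For col16a1, a fibril-associated collagen gene, bin E015 (scaffold_2:9905088-9905256, plus strand) had 9, 13 and 17 reads in MO-injected embryos, against 1, 1, 2 and 5 in uninjected embryos, without overlap. Bin E005 of col13a1, a transmembrane collagen gene, spanned 981 bases (scaffold_140:6525-7505, plus strand) and had 2, 11 and 5 reads in MO-injected embryos, against 0, 0, 0 and 2 in uninjected embryos. It was the longest of the 9 bins, and its groups met at 2 reads. For hapln3, a link protein that fastens proteoglycans to hyaluronan, bin E002 (scaffold_3:26010613-26010954, plus strand) had 11, 18 and 10 reads in MO-injected embryos, against 3, 0, 2 and 2 in uninjected embryos. Here the groups were well apart. The log2 usage changes of lama1, col16a1, col13a1 and hapln3 were 1.42, 1.12, 1.74 and 1.10 in the authors' deposited table, with adjusted p-values of 0.0196, 0.00974, 0.0497 and 0.00770.

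Of the proteases, adamts3, which trims procollagen and activates VEGF-C, had bin E021 (scaffold_1:142849941-142850684, plus strand) at 13, 9 and 10 reads in MO-injected embryos, against 5, 2, 1 and 7 in uninjected embryos, a narrow gap. Its log2 usage change was 1.16 (adjusted p = 0.0106) in the authors' deposited table. The bin E009 of adamts4 (scaffold_226:36000-36186, minus strand) had 6, 1 and 4 reads in MO-injected embryos, against 0, 1, 0 and 0 in uninjected embryos. The groups met at 1 read, and the log2 usage change was 2.46 (adjusted p = 0.00148) in the authors' deposited table. In level, adamts4 fell (-1.10, SE 0.423, in the authors' deposited table). Among the 36 genes, 1, adamts4, was therefore listed both ways, with its level lower and this bin higher. No other gene with a bin had a listed change in level.

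**Figure D3:**
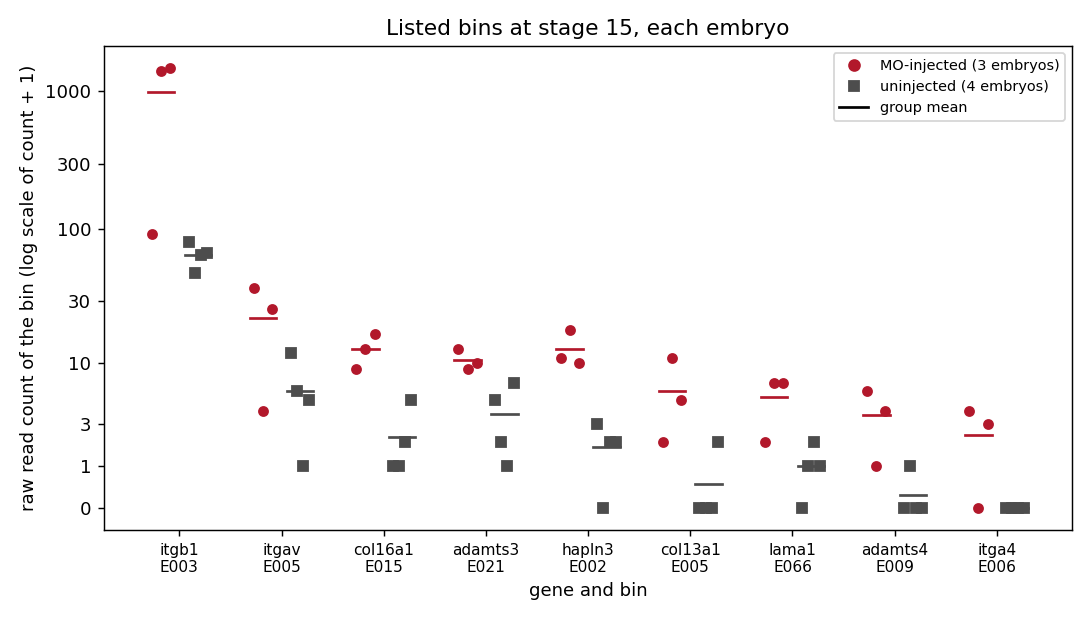
Raw read count (y axis, log scale of count + 1) of each listed bin at stage 15, ordered by mean count, in 3 MO-injected embryos (circles) and 4 uninjected embryos (squares), with group means as lines. The itgb1 bin is the most covered, with MO-injected embryos at 93, 1403 and 1465 reads, and 7 of the 9 bins have a mean count under 10.

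Reads were few in most of these bins: 7 of the 9, or 77.8%, had a mean raw count under 10, against 59.8% of all listed bins. Raw counts are not corrected for depth. Summed over all listed bins of stage 15, the MO-injected columns held 50451 to 83767 reads and the uninjected columns 4922 to 8389, but these sums run over bins chosen as higher and are no measure of depth.

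Other genes of matrix and adhesion, a list of 106 that work with the members, gave 2 listed genes at stage 10 and 16 at stage 15. Over all genes tested, at most 2.19% were listed at stage 10 and at most 13.2% at stage 15. Both related genes listed at stage 10 were lower. They were pcolce2, for an enhancer of procollagen processing, at -0.93 (adjusted p = 0.0550, SE 0.281) and egflam, for pikachurin, at -1.43 (adjusted p = 0.0765, SE 0.448) in the authors' deposited table. At stage 15, 3 were higher and 13 lower, a share of 18.8% higher against 45.1% of all listed genes. The list was chosen with earlier results of these data known, so this share is a description and was not tested. The 3 listed genes of collagen processing were all lower in the authors' deposited table, namely the procollagen protease genes tll1 (-3.65, SE 0.533, adjusted p = 5.59e-10) and tll2 (-1.15, SE 0.287, adjusted p = 0.000828) and the enhancer gene pcolce (-2.27, SE 0.468, adjusted p = 2.92e-05). The hyaluronan receptor gene cd44 was at -3.10 (adjusted p = 7.15e-09, SE 0.481) and the basement membrane linker gene nid1 at -2.32 (adjusted p = 0.000521, SE 0.562) in the authors' deposited table. Kindlins, which switch integrins on from inside the cell, were represented by fermt2 at -1.11 (adjusted p = 5.45e-10, SE 0.161) and fermt1 at -1.44 (adjusted p = 0.00503, SE 0.416) in the authors' deposited table. Higher were the lysosomal protease gene ctsb (1.08, SE 0.133, adjusted p = 9.99e-14), vwa1 (2.07, SE 0.827, adjusted p = 0.0548) and acan (2.12, SE 0.954, adjusted p = 0.0970, mean normalised count 4.86) in the authors' deposited table.

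Markers of tissues that use these genes also moved, in lists chosen with earlier results of these data known. Of all genes tested at stage 15, at most 13.2% were listed, and 45.1% of the listed genes were higher. For stage 10 these shares were at most 2.19% and 43.5%. At stage 15, 4 of 9 muscle and somite markers were listed, all lower, among them, by the authors' deposited table, myh4 at -7.96 (SE 0.379) and tnnt3 at -1.22 (SE 0.173). Beside these markers, itga7, col6a3 and thbs4 fell, while col6a1, the partner chain gene of col6a3, rose. The notochord list had 7 symbols, among which t and tbxt name the same gene. Of these symbols 2 were listed, both higher by the authors' deposited table, t at 1.05 (SE 0.153) and chrd at 1.05 (SE 0.225), beside the fall of col2a1. Of 7 early gastrula and maternal markers 6 were listed, all higher, including, by the authors' deposited table, mixer at 2.14 (SE 0.345). Of 5 neural crest markers 2 were listed, both lower by the authors' deposited table, sox10 at -3.77 (SE 0.445) and tfap2b at -2.13 (SE 0.291). Epidermis and blood had 1 listed marker each, both lower by the authors' deposited table, itln1 at -1.22 (SE 0.440) and tal1 at -1.16 (SE 0.400). Endoderm had 1, vegt, higher at 1.77 (SE 0.155), and a single gene is not read as a change of that tissue. At stage 10, beside the changes of itga5, has-rs, chad and timp3, the authors' deposited table had 2 of 5 epidermal markers, both lower, foxi1 at -2.74 (SE 0.561) and tp63 at -1.01 (SE 0.327). It also had 1 listed gene each of the neural crest list (snai2, 1.14, SE 0.328), the muscle and somite list (mespa, 1.09, SE 0.237) and the early and maternal list (btg4, 1.80, SE 0.482), all higher. At the start of gastrulation, snai2 and mespa are not read as signs of neural crest or somite cells. In whole embryos, fewer cells of a tissue and less RNA per cell cannot be told apart. The part of these tissues in the results for matrix genes was not tested.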

How the data were processed

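Polyadenylated RNA of single whole embryos was measured. Tools named in the submitters' processing notes are DESeq2, DESeq, Cuffdiff, Cufflinks, Bowtie and TopHat, without versions or roles. Neither genome build nor annotation was stated in the sources used here. Per the file headers, the authors deposited for each listed gene a mean normalised count (a scaled signal), a log2 fold change, its standard error (score), and raw and adjusted p-values. The mean normalised count was identical at both stages for all 53 shared genes. For each listed bin the authors deposited raw counts per embryo, their mean (signal), fitted usage scores, a log2 usage ratio, and raw and adjusted p-values. The bin ratio was deposited as uninjected over MO-injected, so it was multiplied by -1 here.

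The headers of the level tables name no direction. Positive values were read as higher in MO-injected embryos, because raw bin ratios (MO-injected over uninjected) and deposited log2 fold changes had a Spearman correlation of 0.709 over 11 genes at stage 10 and 0.699 over 169 genes at stage 15, across genes. The stage 15 bin table names its count columns for stage 10 and its fitted columns for stage 15. It was used as stage 15, since it has 4 uninjected columns. The count columns are numbered in sequence, and no label ties such a number to a single embryo.

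No model was refitted, since the tables hold selected rows, and adjusted p-values are the authors'. The stage difference used a Wald test in scipy 1.17.1. Its check on simulated data left out the selection by listing, so that check does not cover genes listed at both stages. Ratios of raw counts used a pseudocount of 0.5. Members, lists and tests were chosen with earlier results of these data known. All members are named, each with its deposited log2 change and adjusted p-value. Alternatives were stricter limits on p, fold and mean count (10), synonyms, other pseudocounts, and leaving out single count columns.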

Additional observations from a re-analysis of the deposited data

Results flagged for a closer look

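Listed changes of 2 genes had opposite signs at the stages. For has-rs the change at stage 15 minus that at stage 10 was 3.59 on the log2 scale, and for timp3 it was -1.89. Both passed a Wald test of the difference, as did all 7 of the 53 genes listed at both stages with opposite signs. The listing at each stage all but fixes that call, so it is no further evidence.

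In 2 of the 9 listed bins, 1 of the 4 uninjected embryos stood apart from the other three by Dixon's ratio, which was 1 for both. In the adamts4 bin that embryo had 1 read and the others had 0, and in the col13a1 bin it had 2 reads and the others had 0. With 0 in the other three, any read gives a ratio of 1. The usual rate of about 1 flag in 20 groups by chance holds for continuous values and not for such counts, so these flags say nothing about the embryos.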

How the results depend on the processing

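At an adjusted p under 0.01, 1 of 2 listed members was higher at stage 10, and 6 of 18 at stage 15 (10 of 27 as deposited). Among members changed at least 4-fold at stage 15, 6 were higher and 3 lower, with the sparsely read loxl4, itga2b.1 and adam21 among the higher ones. At a mean normalised count of 10 or more, 7 were higher and 17 lower. Shares of all listed genes at these limits on p, fold and count were not computed, so these counts are not read as results. With only genes changed 2-fold at both stages, timp3 left the stage comparison and has-rs was the 1 member whose change differed. Synonyms added angptl2 and tnnc1, which are no matrix genes of the rule. The median log2 ratio of raw counts over the 9 bins was 2.47 with a pseudocount of 0.5, 2.82 with 0.1 and 1.90 with 1, 2.86 over the 2 bins with a mean count of 10 or more, and 1.34 by the authors' fitted usage; the cause was not tested. It was 2.25 to 2.50 with single count columns left out. Bins without overlap numbered 1 of 2 at a mean count of 10 or more (88.7% of all listed bins), 2 of 3 at an adjusted p under 0.01 (88.6%), and 4 to 7 of 9 with single columns left out (76.6% to 84.3%), the most without the second MO-injected column (83.8%). Of the alternatives tried, 24 stayed within the limits for calling a value the same and 11 moved. Stage 10 gave no value for bins, as no member had one. Level tables hold no values per embryo, so leaving out an embryo was not possible for them. No paired analysis was possible because the count columns cannot be tied to the lettered embryos. Few reads limit most bins and the genes loxl4, adam21 and itga2b.1.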

Other observations

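Genes of the related list also had listed bins at stage 15, 8 bins in 7 genes, and 7 of the 8 had every MO-injected embryo above every uninjected one, against 75.5% of all listed bins. The most covered was bin E054 of hspg2, for the basement membrane proteoglycan perlecan, with 131, 72 and 228 reads in MO-injected embryos, against 0, 1, 2 and 0 in uninjected embryos. Its log2 usage change was 3.56 (adjusted p = 1.64e-86) in the authors' deposited table. The gene tln2, for talin 2, which ties integrins to actin, had 2 bins. Its bin E051 had 37, 37 and 33 reads in MO-injected embryos, against 13, 7, 21 and 8 in uninjected embryos. Bin E011 of dcn, for the collagen-binding proteoglycan decorin, had 1, 17 and 8 reads in MO-injected embryos and none in the 4 uninjected embryos. The others were in ncan, hyal2, p4ha1 and fermt2. The fermt2 bin was the 1 whose groups overlapped, with 1, 5 and 5 reads in MO-injected embryos, against 1, 0, 4 and 1 in uninjected embryos.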
